A study of Mus musculus with 6 samples.

Results

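The small leucine-rich proteoglycans (SLRPs) are secreted proteins of the extracellular matrix that are built around a run of leucine-rich repeats, and many carry chondroitin, dermatan or keratan sulfate chains. They were followed here as a list of 10 genes named by symbol, a list chosen with earlier results of these data known. Its class I genes are decorin (Dcn), biglycan (Bgn) and asporin (Aspn). The class II genes are lumican (Lum), fibromodulin (Fmod), prolargin (Prelp) and osteomodulin (Omd). Osteoglycin (Ogn) and epiphycan (Epyc) are of class III, and podocan (Podn) of class V. All 10 were found among the 17830 genes of the count table, and 9 of them were among the 13484 genes with enough counts to be tested, the exception being Epyc. SLRPs bind to fibrillar collagen and set how fibrils grow sideways and pack, and several also hold TGF-beta and BMP ligands in the matrix. In bone, Bgn and Dcn are the classical SLRPs of osteoid, and Omd was named for its place in mineralizing matrix.

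The 6 libraries were bulk RNA-seq of sorted tdTomato+ cells, which the labels call skull osteoblasts, taken from 6-month-old mice, with 3 control libraries (mOCN-Cre; Ai9) and 3 APPswe libraries (TgAPPswemOCN-Cre; Ai9). APPswe is the Swedish mutant form of human amyloid precursor protein, placed behind a CAG promoter and a stop cassette that Cre removes. Both groups carry mOCN-Cre, a Cre inserted at the endogenous osteocalcin gene (Bglap), and the Ai9 reporter, which makes tdTomato in any cell that has had Cre and in its descendants, so by their labels the groups differ in the APPswe transgene alone. The cells had grown out of calvarial chips in culture, were replated and then sorted for tdTomato, so the values describe cultured cells that carry the reporter rather than cells taken directly from bone. Nothing in the sources used here says that the libraries came from separate animals or cultures, so p-values measure only the spread between these samples, which may be technical.

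Between 17263757 and 18398392 reads were counted per library. The control replicate 2 library stood apart from its group: its biological coefficient of variation was 0.344 against control replicate 1 and 0.348 against control replicate 3, while those libraries differed from each other by 0.0658 and the APPswe libraries by 0.0202 to 0.0789. Its counts on Y-linked genes summed to 2, against 2257 to 3406 in the other 5 libraries, although the study's methods name male mice, and it held 1 count of Bglap against 159 and 204 in the other controls and 115 to 159 in the APPswe libraries. The result for each member is therefore given with and without control replicate 2, as are the counts for the lists of partner genes. The endogenous App gene differed by -0.11 on the log2 scale (SE 0.11, adjusted p = 0.507), and how reads of the human transgene were assigned is not stated in the sources used here. Osteoblast markers summed to 17576 to 18829 CPM (counts scaled to a common library size) in control and 11636 to 12267 CPM in APPswe libraries, a sum that Spp1 (8171 ± 1804 against 3569 ± 112 CPM, called lower), Col1a1 and Col1a2 make up almost whole. Of the 12 markers tested, 2 passed the adjusted p higher and 1 lower, and without control replicate 2 there were 4 and 5. Over all genes tested, 10.5% passed higher and 12.0% lower, or 23.3% and 25.0% without control replicate 2. The same shares stand beside the macrophage counts below. Sp7, a transcription factor of the osteoblast lineage, was called higher, at 4.97 ± 2.76 against 19.6 ± 1.93 CPM, and Runx2 passed the adjusted p higher (log2 fold change 0.63, adjusted p = 0.0374). Alpl and Dlx5 lay above all controls in the APPswe libraries without passing the test (adjusted p = 0.291 and 0.0576). Without control replicate 2, the 4 that passed higher were Sp7, Runx2, Alpl and Dlx5. The 5 that passed lower were Spp1, Bglap2 (log2 fold change -1.12), Phex (-1.27, at 18 counts or fewer), Ibsp (-0.60) and Bglap (-0.46). The osteocyte markers Sost, Mepe and Fgf23 had 3 counts or fewer in every library. Dmp1, also an osteocyte marker, was at 15.1, 0.112 and 14.3 CPM in control and at 0.673, 0.891 and 0.787 CPM in APPswe libraries. It did not pass with all libraries (adjusted p = 0.0804) and was called lower without control replicate 2 (log2 fold change -4.21, adjusted p = 1.44e-08). Macrophage markers summed to 18252 to 25041 CPM in control and 12642 to 13609 CPM in APPswe libraries, most of it Lyz2. Of 13 tested, 1 passed the adjusted p higher (Aif1) and 8 lower, against 2 and 10 without control replicate 2, and Csf1r (986 ± 326 against 937 ± 2.23 CPM) and Ptprc (217 ± 52.2 against 192 ± 15.4 CPM) did not pass with all libraries.

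Of the 10 genes, 8 sit in 3 chromosomal clusters, in which no other protein-coding gene lies between the SLRP neighbours (positions from RefSeq on the mouse build GRCm38.p6). Prelp (chr1:133910304-133930102) and Fmod (chr1:134037254-134048280) lie next to each other on opposite strands. Dcn (chr10:97479500-97518163), Lum (chr10:97565501-97572703) and Epyc (chr10:97644068-97681908) share a strand, with keratocan (Kera) in the same row. Aspn (chr13:49544443-49567565), Omd (chr13:49582462-49592612) and Ogn (chr13:49608015-49624501) follow each other on a shared strand in a row that also holds Ecm2, and the whole row lies within the span of Cenpp, a centromere gene on the opposite strand. Bgn (chrX:73483601-73495936) and Podn (chr4:108014793-108031954) stand alone. How strand was treated in counting is not stated, so reads of a gene and of an overlapping gene on the other strand cannot be told apart. Cenpp itself was at 2.02 to 3.26 CPM in all 6 libraries, and a noncoding antisense gene, Gm15851, overlaps 4519 bases of Prelp.

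The 250 bases before an annotated start site are printed for the neighbours whose ratios separated the groups most: Prelp and Fmod on chromosome 1, and Aspn and Ogn on chromosome 13. They are reference sequence from RefSeq (GRCm38.p6), written 5′ to 3′ on the gene's own strand. The windows of Fmod, Aspn and Ogn end where the gene's span begins, whereas the Prelp window, the only entry for Prelp in the table used, lies before a start inside the span given above, which reaches further upstream to 133930102. Capitals mark matches, on either strand, to the core promoter box TATAAA, the core bound by Runx factors (ACCACA), a Smad element (CAGAC) or the AP-1 element (TGANTCA).

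Prelp, chr1:133921402-133921651, minus strand: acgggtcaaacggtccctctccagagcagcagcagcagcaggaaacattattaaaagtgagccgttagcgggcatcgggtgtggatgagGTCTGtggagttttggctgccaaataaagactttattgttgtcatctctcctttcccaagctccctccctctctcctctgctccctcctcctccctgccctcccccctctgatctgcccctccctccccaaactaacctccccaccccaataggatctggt
Fmod, chr1:134037004-134037253, plus strand: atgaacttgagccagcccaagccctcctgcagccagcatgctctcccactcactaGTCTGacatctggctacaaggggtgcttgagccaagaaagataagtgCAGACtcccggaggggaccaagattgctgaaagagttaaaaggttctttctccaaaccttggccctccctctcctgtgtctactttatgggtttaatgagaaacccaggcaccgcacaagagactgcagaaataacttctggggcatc
Aspn, chr13:49544193-49544442, plus strand: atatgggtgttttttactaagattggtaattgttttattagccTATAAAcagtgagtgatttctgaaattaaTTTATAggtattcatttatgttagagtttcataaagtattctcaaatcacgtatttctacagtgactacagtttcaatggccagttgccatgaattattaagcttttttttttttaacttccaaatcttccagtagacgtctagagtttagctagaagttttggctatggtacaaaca
Ogn, chr13:49607765-49608014, plus strand: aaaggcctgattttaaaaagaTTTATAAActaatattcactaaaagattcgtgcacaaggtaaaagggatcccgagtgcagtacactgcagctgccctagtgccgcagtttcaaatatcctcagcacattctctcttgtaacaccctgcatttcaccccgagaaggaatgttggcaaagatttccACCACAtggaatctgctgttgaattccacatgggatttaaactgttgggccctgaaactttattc

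The Prelp window held 1 CAGAC match, at positions -161 to -157 from that inner start, and the Fmod window held 2, at -195 to -191 and at -148 to -144. CAGAC occurred in 42.2% of all 32851 promoter windows of this length. The Aspn window held TATAAA at -207 to -202 and at -178 to -173. In the Ogn window, a pair of overlapping TATAAA matches began at -229 and at -227, and ACCACA lay at -65 to -60, where it overlaps an E-box (CANNTG, not capitalised). TATAAA was present in 12.4% of all windows, ACCACA in 14.0%, TGANTCA in 6.75% and CANNTG in 66.2%. The Aspn window was 30.0% G and C and the Ogn window 42.0%, against 55.6% for Prelp and 51.2% for Fmod.

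With all 6 libraries, Podn, Fmod and Aspn were higher in APPswe cells, by 2.16-fold, 2.10-fold and 3.03-fold, and Bgn was higher by 1.48-fold. No gene of the list passed the test in the lower direction. Without control replicate 2, the picture ran in both directions: Dcn, Lum and Prelp were lower in APPswe cells, while Podn, Bgn, Fmod, Omd and Aspn were higher. A gene is called here when its adjusted p in edgeR's quasi-likelihood test (Benjamini-Hochberg over all genes tested) is at or under 0.05 and its log2 fold change is at least 1 in size. By that rule 3 of 9 members were called higher, against 3.74% of all genes tested, and 0 of 9 lower, against 3.60%. On the adjusted p alone, 4 of 9 were higher (10.5% of all genes) and 0 lower (12.0%). The median log2 fold change was 0.61 over the 9 members and -0.0033 over all genes tested.

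Without control replicate 2, 2 of 9 members were called higher (Podn and Aspn), against 4.87% of 13753 genes tested, and 2 were called lower (Dcn and Prelp), against 6.58%. On the adjusted p alone, 5 were higher (23.3% of all genes) and 3 lower (25.0%), so that 8 of 9 passed in either direction (48.3%), the exception being Ogn. Among the 6 libraries, 5 members had every APPswe library above every control (22.8% of all genes) and 0 had every one below (22.2%), and against control replicates 1 and 3 alone these counts were 5 (33.2%) and 3 (32.8%). The members' median log2 fold change was then 0.52, against 0.015 over all genes. Control replicate 2 was the lowest of the 6 libraries for 8 of 9 members, all but Podn, which was so for 28.8% of all genes tested. Its level was under 0.5 times that of each of the other controls for Dcn, Lum, Ogn, Omd, Aspn and Prelp, 6 of 9 members, against 7.42% of all genes.

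**Figure D1:**
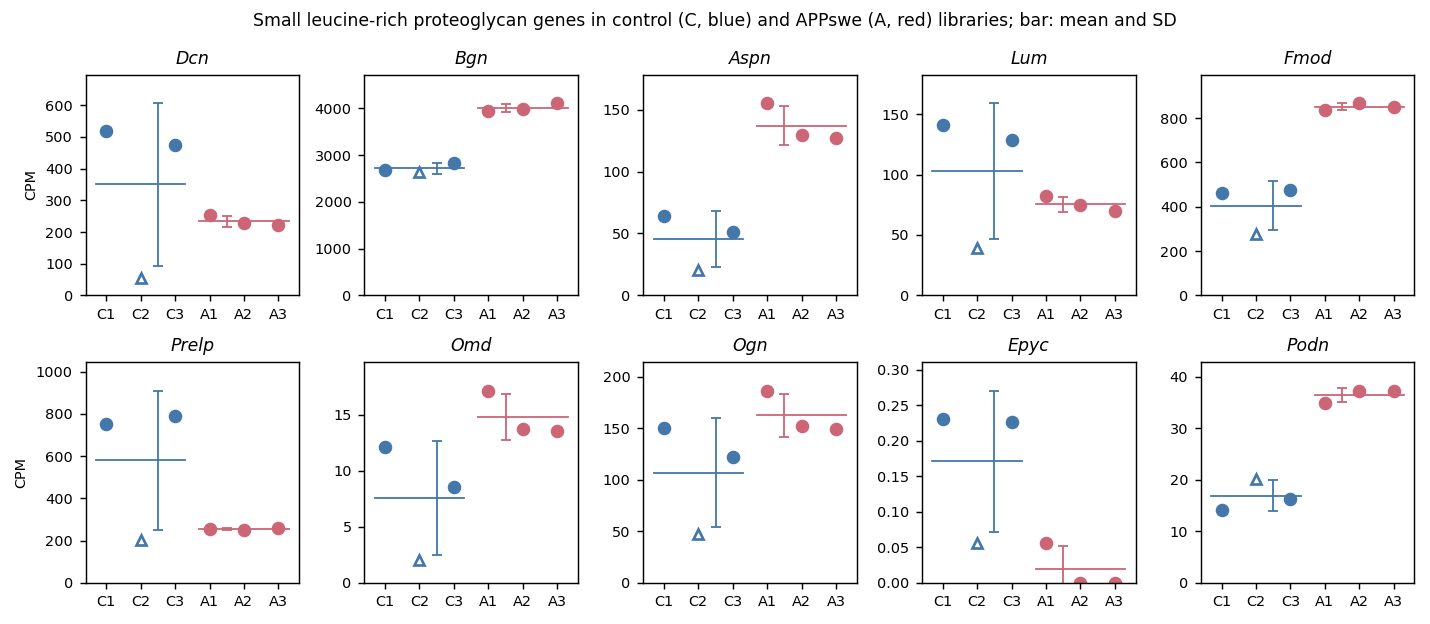
CPM of each of the 10 SLRP genes in the 6 libraries, with control libraries (C) in blue and APPswe libraries (A) in red, each panel on its own linear scale from 0, and the bar at the group mean with its SD. Control replicate 2 is the lowest point in the panels of Dcn, Bgn, Aspn, Lum, Fmod, Prelp, Omd and Ogn (open triangle), and the SD of the APPswe libraries is smaller than that of the controls in each panel.

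Among the class I genes, Dcn encodes the proteoglycan that coats the surface of collagen I fibrils and binds TGF-beta. It was at 520, 55.8 and 474 CPM in control replicates 1 to 3 and at 253, 228 and 222 CPM in the APPswe libraries. The groups overlap, since control replicate 2 held less Dcn than any other library, while control replicates 1 and 3 lay above all APPswe libraries. Over all 6 libraries the means were 350 ± 256 and 234 ± 16.7 CPM (SD, n = 3 each), a log2 difference of -0.58 with an interval of -2.22 to 1.06 (95%, adjusted p = 0.579). Without control replicate 2 the log2 fold change was -1.08 (SE 0.07, adjusted p = 7.71e-07), which is 2.12-fold lower in APPswe cells. Control replicates 1 and 3 exceeded control replicate 2 by 9.33-fold and 8.51-fold, the widest gap within a group for any member tested.

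Bgn, a close relative of Dcn with roles in bone formation and in Toll-like receptor signalling, was the most abundant member. It was at 2672, 2633 and 2839 CPM in control libraries and at 3943, 3994 and 4105 CPM in APPswe libraries. The groups did not overlap, and control replicate 2 sat with the other controls. The log2 fold change was 0.56 (SE 0.07, adjusted p = 0.00369) with all libraries and 0.55 (SE 0.06, adjusted p = 1.77e-05) without control replicate 2, so the rise passed the adjusted p either way and stayed under the fold limit.

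Aspn encodes the class I member with a stretch of aspartate residues and without the usual chain attachment site, known for binding collagen at a site shared with Dcn and for binding TGF-beta. It was at 64.3, 20.2 and 51.1 CPM in control libraries and at 155, 129 and 127 CPM in APPswe libraries. Every APPswe library lay above every control, and control replicate 2 was again the lowest. Its log2 fold change was 1.60 (SE 0.38, adjusted p = 0.0278), and 1.25 (SE 0.12, adjusted p = 8.08e-06) without control replicate 2, a 2.38-fold rise. The call with all 6 libraries was lost without control replicate 3 (adjusted p = 0.0644) and without any single APPswe library (0.0862 to 0.0994).

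Among the class II genes, Lum and Fmod encode keratan sulfate proteoglycans that bind the same stretch of collagen I and act at successive stages of fibril growth. Lum was at 141, 38.8 and 129 CPM in control libraries and at 82.1, 74.7 and 69.8 CPM in APPswe libraries. As for Dcn, control replicates 1 and 3 lay above all APPswe libraries and control replicate 2 below them. The log2 difference was -0.45 with an interval of -1.47 to 0.58 (adjusted p = 0.488), and without control replicate 2 it was -0.83 (SE 0.08, adjusted p = 1.18e-05), 1.78-fold lower and under the fold limit.

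Fmod, which guides collagen crosslinking and is abundant in tendon and cartilage, was at 463, 278 and 473 CPM in control libraries and at 835, 866 and 851 CPM in APPswe libraries. The groups did not overlap and the APPswe libraries lay close to their mean of 851 ± 15.8 CPM (SD, n = 3). Its log2 fold change was 1.07 (SE 0.20, adjusted p = 0.0125), and 0.87 (SE 0.06, adjusted p = 6.50e-07) without control replicate 2, which is under the fold limit. The call was also lost without any single APPswe library (adjusted p 0.0523 to 0.0577).

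Prelp encodes a basic, heparin-binding SLRP that links collagen to heparan sulfate proteoglycans of basement membranes. It was at 750, 200 and 789 CPM in control libraries and at 253, 252 and 261 CPM in APPswe libraries. Control replicates 1 and 3 were far above all APPswe libraries, and control replicate 2 was below them. With all libraries the log2 difference was -1.19 (SE 0.46, adjusted p = 0.113). Without control replicate 2 it was -1.59 (SE 0.06, adjusted p = 9.59e-09), 3.01-fold lower in APPswe cells and the largest change of the list in either direction.

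Omd, the acidic class II member that binds hydroxyapatite and is found mainly in bone and dentin, was at 12.1, 2.02 and 8.58 CPM in control libraries and at 17.2, 13.8 and 13.5 CPM in APPswe libraries. The APPswe libraries all lay above the controls, with little room between control replicate 1 and the nearest of them. The log2 difference was 0.97 with an interval of -0.32 to 2.26 (adjusted p = 0.239), and 0.52 (SE 0.16, adjusted p = 0.0202) without control replicate 2.

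Of the class III genes, Ogn encodes osteoglycin, first isolated from bone and also secreted by muscle and fibroblasts. It was at 150, 47.8 and 122 CPM in control libraries and at 187, 152 and 149 CPM in APPswe libraries. Control replicate 1 lay within the range of the APPswe libraries, so the groups overlap. The log2 difference was 0.61 with an interval of -0.30 to 1.51 (adjusted p = 0.288), and 0.26 with an interval of 0.01 to 0.50 (adjusted p = 0.0783) without control replicate 2. Epyc, a cartilage SLRP of the growth plate, had 4, 1 and 4 counts in control libraries and 1, 0 and 0 in APPswe libraries. These are at or near the limit of 3 counts, equal to 0.167 to 0.173 CPM at these depths, so no fold is given.

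Podn, a class V SLRP that binds collagen I and slows the growth of smooth muscle cells in culture, was at 14.2, 20.2 and 16.3 CPM in control libraries and at 34.9, 37.2 and 37.3 CPM in APPswe libraries. The groups did not overlap, and Podn was the only tested member for which control replicate 2 was the highest control. Its log2 fold change was 1.11 (SE 0.14, adjusted p = 0.00326), and 1.26 (SE 0.09, adjusted p = 1.63e-06) without control replicate 2, a 2.40-fold rise. Podn and Fmod, unlike Aspn, were called in every alternative fitted to all 6 libraries. Without control replicate 1 its log2 fold change was 1.00, just under the limit, with an adjusted p of 0.0109.

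**Figure D2:**
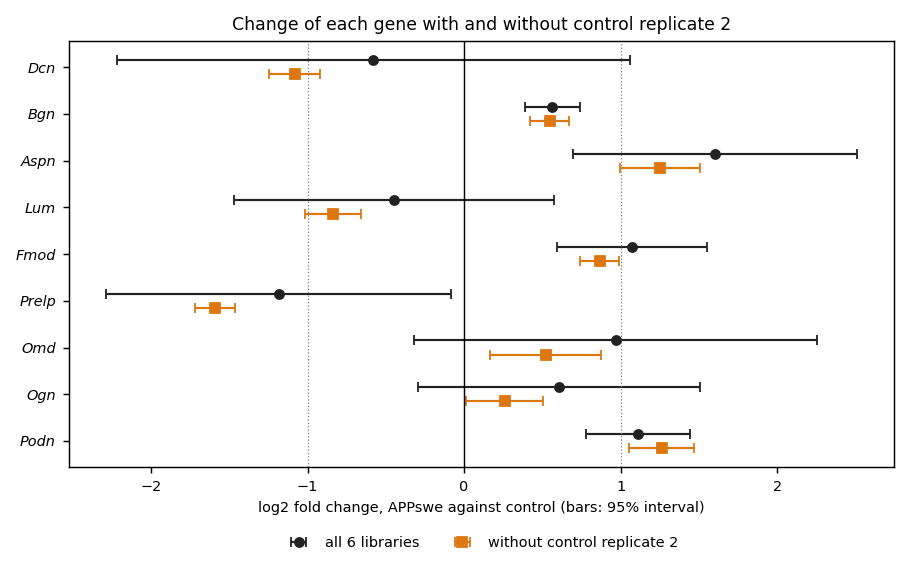
Log2 fold change of the 9 tested SLRP genes in APPswe against control cells, with 95% intervals, from all 6 libraries (black circles) and without control replicate 2 (orange squares), with dotted lines at the fold limit. Without that library the intervals narrow and those of Dcn, Lum and Prelp lie wholly below 0, while Bgn hardly moves.

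Control replicate 2 is named Ctrl-S, while the name of every other library carries an L, and these letters are not explained. The library names also fall into 2 styles, with a hyphen (control replicates 1 and 2, APPswe replicate 1) and without (control replicate 3, APPswe replicates 2 and 3). What the styles stand for is not stated, so differences were also taken within each, with control replicate 2 left out and no test. Dcn differed by -1.04 on the log2 scale among the libraries with a hyphen and by -1.08 among those without, Lum by -0.78 and -0.83, and Prelp by -1.57 and -1.62. Podn differed by 1.27 and 1.17, Bgn by 0.56 and 0.51, Fmod by 0.85 and 0.86, and Aspn by 1.26 and 1.32. Omd differed by 0.48 and 0.64, and Ogn, with the smallest difference of the 9 in both, by 0.31 and 0.30. With control replicate 2 kept, the hyphen value turned to 0.57 for Dcn and 0.15 for Lum and came to -0.62 for Prelp.

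Ratios between neighbours within a library do not depend on its depth. From the authors' FPKM values (fragments scaled by transcript length and library size), which can be compared between genes, Aspn was 0.477, 0.472 and 0.466 times Ogn in control libraries and 0.927, 0.947 and 0.951 times Ogn in APPswe libraries. Control replicate 2, in which both genes were low, lay between the other controls in this ratio. The mean ratio was 0.472 ± 0.00529 in control and 0.942 ± 0.0129 in APPswe libraries (SD, n = 3 each), 2.00 times as high. An exact two-sided permutation test gave p = 0.10, the smallest that 3 against 3 libraries allow, and 0.14 after adjustment over the 7 ratios computed. Omd to Ogn, the other pair of the chromosome 13 row, was at 0.117, 0.0615 and 0.102 in control and at 0.134, 0.131 and 0.132 in APPswe libraries, without overlap and with the same exact p.

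On chromosome 1, Prelp stood at 1.39, 0.619 and 1.43 times Fmod in control libraries and at 0.259, 0.249 and 0.262 times Fmod in APPswe libraries. Control replicate 2 was closer to the APPswe libraries than the other controls were, but still above them, so the order of the pair was Prelp over Fmod in 2 of 3 controls and Fmod over Prelp in the other 4 libraries. On chromosome 10, Dcn was 4.14, 1.60 and 4.14 times Lum in control and 3.46, 3.42 and 3.56 times Lum in APPswe libraries, which overlap (exact permutation p = 1.0). Dcn to Bgn also overlapped, at 0.261, 0.0281 and 0.224 in control and at 0.0858, 0.0761 and 0.0721 in APPswe libraries (exact permutation p = 0.40). The other pairs computed, Aspn to Dcn (0.0830 to 0.282 against 0.439 to 0.473) and Lum to Fmod (0.220 to 0.481 against 0.129 to 0.155), did not overlap and had the same smallest exact p as Aspn to Ogn.

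**Figure D3:**
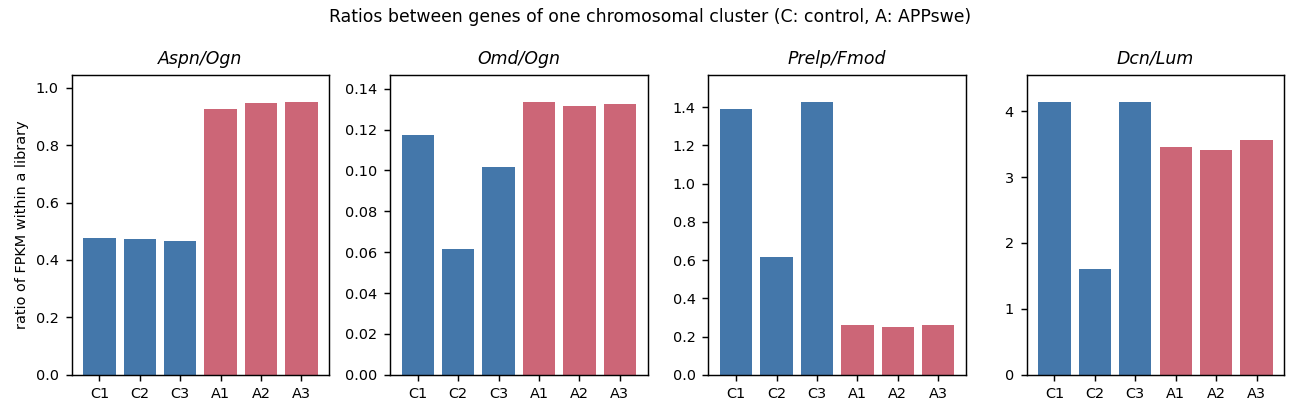
Ratio of the FPKM of neighbouring SLRP genes in each library, controls (C) in blue and APPswe (A) in red, each panel from 0. Aspn to Ogn is near 0.472 in all 3 controls and near 0.942 in all 3 APPswe libraries, while the ratios with Prelp or Dcn set control replicate 2 apart from the other controls.

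By level per length, Bgn led the list in every library, at 1221 ± 39.8 FPKM in control and 1901 ± 26.1 FPKM in APPswe cells (SD, n = 3 each). In control cells Dcn (211 ± 154 FPKM), Prelp (169 ± 95.4) and Fmod (138 ± 36.9) came next by mean. Their order was Dcn, Prelp, Fmod in control replicates 1 and 3 and the reverse in control replicate 2. In APPswe cells Fmod came second (305 ± 4.09 FPKM), ahead of Dcn (148 ± 12.1) and Prelp (78.2 ± 1.22). Ogn (71.4 ± 9.79) and Aspn (67.2 ± 8.24) were close behind by mean, with Ogn above Aspn in every APPswe library. Lum was at 55.1 ± 29.9 and 42.7 ± 3.90 FPKM, Podn at 6.28 ± 0.640 and 14.2 ± 0.488, and Omd at 4.59 ± 3.12 and 9.46 ± 1.37. Lum lay above Ogn (44.5 ± 22.1) in every control library, while the order of Podn and Omd differed between control libraries.

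Summed over the 10 genes, the list came to 2082, 1435 and 2090 FPKM in control libraries and to 2660, 2609 and 2641 FPKM in APPswe libraries. Bgn made up 58.0%, 82.9% and 60.6% of that sum in control libraries and 70.9%, 72.3% and 73.1% in APPswe libraries. Dcn made up 15.1%, 2.33% and 13.6% in control and 6.09%, 5.50% and 5.27% in APPswe libraries, and Fmod 7.60%, 6.61% and 7.63% against 11.3%, 11.9% and 11.5%. The make-up of control replicate 2 differed from that of the other controls mainly by less Dcn and Prelp beside a similar amount of Bgn.

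**Figure D4:**
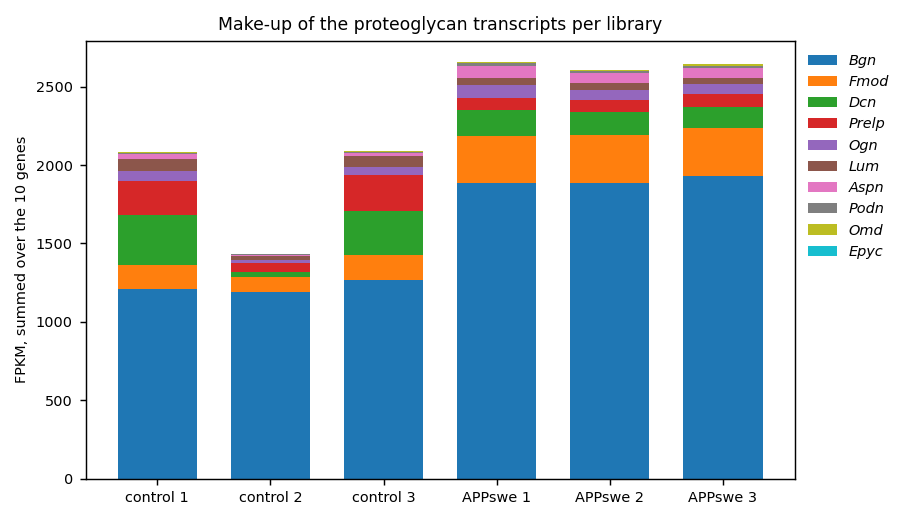
FPKM summed over the 10 SLRP genes per library, stacked by gene. Bgn is the largest block in each of the 6 bars, the sum is higher in the APPswe libraries (2609 to 2660) than in the controls (1435 to 2090), and the Dcn and Prelp blocks are tallest in control replicates 1 and 3.

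Of the SLRP genes outside the list, Kera, a corneal keratan sulfate SLRP that neighbours Lum, was called higher. It had 10, 0 and 12 counts in control libraries and 56, 44 and 33 in APPswe libraries, with a log2 fold change of 2.55 (SE 0.73, adjusted p = 0.0486), and it was called without control replicate 2 as well (1.97, adjusted p = 0.000537). Tsukushi (Tsku), which binds BMP and Wnt pathway proteins, rose from 46.6 ± 3.42 to 66.8 ± 4.34 CPM (log2 fold change 0.52, adjusted p = 0.00972). Ecm2 of the chromosome 13 row had a log2 difference of 0.98 (SE 0.50, adjusted p = 0.204), and 0.54 (adjusted p = 0.0170) without control replicate 2. Podnl1 (0.44, adjusted p = 0.201), Optc (0.33, 0.526) and Chadl (-0.14, 0.838) did not pass the test, and Nyx and Chad had too few counts to be tested.

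The closest patterns to each member were sought by the root mean square difference of centred log2 CPM over the 6 libraries, leaving out genes whose log2 CPM averaged under 1. For Dcn they were Mmp13 (0.071), Nrn1 (0.084) and Saa3 (0.089), and for Prelp Gimap6 (0.038), Wfdc17 (0.092) and Maff (0.10). The single nearest gene was Foxs1 for Podn (0.030), Phf21a for Bgn (0.019), Egr2 for Fmod (0.045), Nkd2 for Lum (0.079), Scg2 for Aspn (0.093), Gulp1 for Ogn (0.062) and Pla2g7 for Omd (0.131). Among the members themselves, the neighbours Ogn and Omd were the most alike pair (0.304), and Aspn and Prelp the least alike (1.36). Control replicate 2 enters all of these distances.

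The partners of SLRPs in the matrix were followed as lists, in which a gene is said to rise or fall when it passed the adjusted p, as 10.5% and 12.0% of all genes tested did, or 23.3% and 25.0% without control replicate 2. Of 13 fibrillar and fibril-associated collagen genes tested, 5 rose and 0 fell on the adjusted p (median log2 fold change 0.49). Col14a1, whose protein sits on fibrils and binds Dcn, rose from 17.1 ± 6.53 to 164 ± 4.48 CPM (log2 fold change 3.27, adjusted p = 0.00108), and Col3a1, the collagen III gene, by 1.42 on the log2 scale (adjusted p = 0.00861). Col11a1 (0.78) and Col12a1 (0.77) rose as well. With control replicate 2 left out, 8 collagen genes rose and 1 fell. Of 12 genes for collagen folding and crosslinking, 4 rose (Loxl2 0.84, Serpinh1 0.73, Plod2 0.56 and Fkbp10 0.39) and 1 fell (Loxl4 -0.49), with a median of 0.05, and without control replicate 2 the counts were 4 and 3.

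Of 9 large proteoglycan genes, 2 rose and 2 fell. Among the hyalectan genes, Vcan rose from 90.5 ± 16.0 to 415 ± 31.5 CPM (log2 fold change 2.20, adjusted p = 0.000509) and Acan, at a low level, from 0.361 ± 0.323 to 3.84 ± 0.192 CPM (3.39, adjusted p = 0.0158), while Bcan did not pass (-0.24, adjusted p = 0.839) and Ncan had too few counts to be tested. The basement membrane heparan sulfate proteoglycan genes Agrn (-0.92) and Hspg2 (-0.71) fell. The median of the list was -0.24, and without control replicate 2 there were 2 that rose and 3 that fell.

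Among the enzymes that build the chains, the counts that passed in each direction with all 6 libraries were small. Nothing is read from them about these lists. Of 8 genes for the linker by which chains are attached, Pxylp1, a phosphatase of the linker xylose, rose (1.21) and B4galt7 fell (-0.79), with a median of -0.16. Of 15 chondroitin and dermatan sulfate genes, 3 rose and 3 fell, with a median of -0.26. Csgalnact1, which starts chondroitin chains, rose from 22.4 ± 5.42 to 101 ± 3.10 CPM (log2 fold change 2.17, adjusted p = 0.00094), beside the polymerase gene Chsy1 (0.93) and the epimerase gene Dse (0.34), while Chst7 (-1.10), Chst11 (-0.54) and Chpf2 (-0.47) fell. Of 8 keratan sulfate genes, B4galt1 rose (0.40) and B3gnt2 (-0.54) and B4galt4 (-0.46) fell, with a median of -0.38. Without control replicate 2, 1 linker gene rose and 3 fell, 5 chondroitin and dermatan sulfate genes rose and 8 fell, and 2 keratan sulfate genes rose and 5 fell. The share that fell was then above the 25.0% of all genes in each of these lists. The share that rose was above 23.3% for chondroitin and dermatan sulfate genes, near it for keratan sulfate genes and under it for linker genes. No test was run over the lists.

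Of 13 genes for proteases that process or cut SLRPs, 4 rose and 0 fell (median 0.12), and without control replicate 2 there were 5 in each direction. Bmp1, which removes the propeptide of Bgn, rose from 195 ± 11.5 to 310 ± 12.5 CPM (log2 fold change 0.67, adjusted p = 0.00272), and Mmp14 by 0.38. Mmp9, which is also an osteoclast marker, rose from 2.22 ± 1.49 to 126 ± 2.93 CPM (5.83, adjusted p = 0.000811), and Gzmb, a granzyme, from 0.151 ± 0.0854 to 1.92 ± 0.430 CPM (3.61, adjusted p = 0.00286). Of 22 genes for SLRP ligands and receptors, 4 rose and 7 fell (median -0.36), against 6 and 12 without control replicate 2. Tgfb1, the growth factor bound by Dcn, Bgn and Fmod, fell from 235 ± 25.1 to 123 ± 1.26 CPM (-0.94, adjusted p = 0.00162) while Tgfb3 rose (0.63, adjusted p = 0.00369), and Tlr4, a receptor for soluble Bgn, fell from 103 ± 7.96 to 51.0 ± 3.69 CPM (-1.01, adjusted p = 0.00116). Kdr (-2.45) and Tnf (-1.40) fell, and Lrp6 (0.66), Insr (0.35) and Egfr (0.29) rose.

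**Figure D5:**
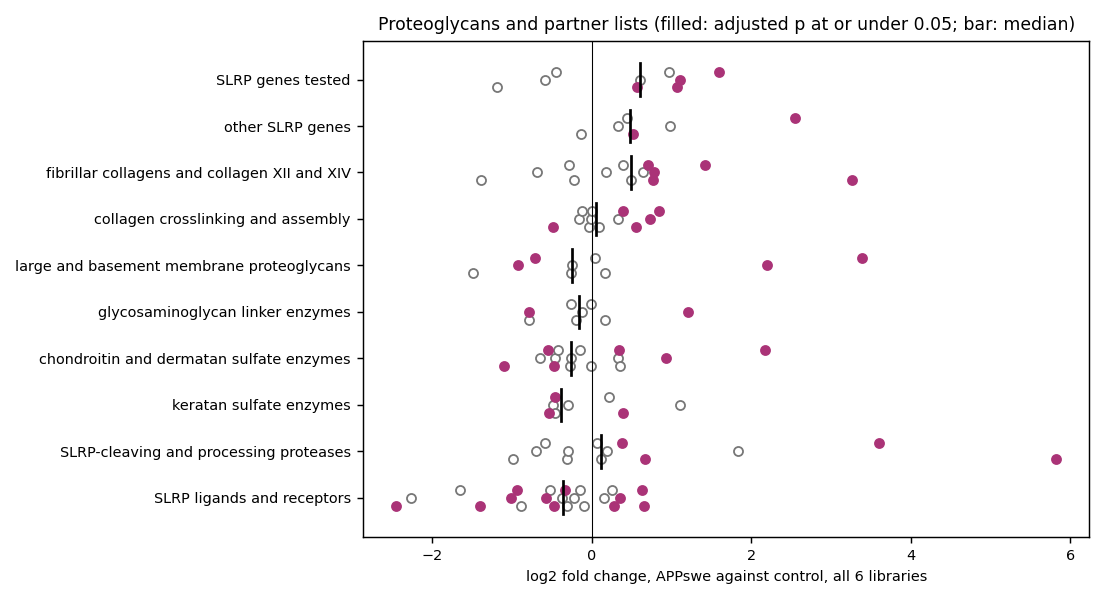
Log2 fold change in APPswe against control cells, all 6 libraries, for each tested SLRP gene and each tested gene of the partner lists, with filled points at an adjusted p of 0.05 or less and a bar at the median of each list. The SLRP genes spread from -1.19 (Prelp) to 1.60 (Aspn), with a median of 0.61, while the medians of the chain-building enzymes lie below 0.

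Markers of other cell types were followed in the same libraries. Of all genes tested, 3.74% were called higher and 3.60% lower, or 4.87% and 6.58% without control replicate 2. No difference of a cell type is read from lists with 1 marker called. Fibroblast markers, among cells that express many SLRPs, summed to 1711 to 1848 CPM in control and 3495 to 3763 CPM in APPswe libraries (6 of 12 called higher, 1 lower). Tendon markers summed to 687, 108 and 722 CPM in control libraries and to 1103 to 1162 CPM in APPswe libraries (2 of 5 called higher, Tnmd and Kera). Most of that sum was Thbs4, at 632, 72.7 and 667 CPM in control and 1028 to 1089 CPM in APPswe libraries, which was not called. Mkx passed the adjusted p lower (log2 fold change -0.79, adjusted p = 0.0213), and Scx did not pass (0.15, adjusted p = 0.718). Chondrocyte markers were at 183 to 342 and 379 to 413 CPM (1 of 4 higher), dural and meningeal markers at 65.0 to 124 and 163 to 174 CPM (1 of 5 higher, 1 lower), and pericyte and smooth muscle markers at 1063 to 2188 and 2471 to 2573 CPM (1 of 6 higher). Comp made up most of the chondrocyte sum in every library (277 to 363 CPM) but control replicate 2 (6.58 CPM). There the sum was mostly Col2a1 (162 CPM, against 18.5 to 26.4 CPM elsewhere). Neither gene passed the adjusted p with all 6 libraries. Skeletal muscle markers went from 2.66 to 12.3 CPM in control to 175 to 179 CPM in APPswe libraries (9 of 9 higher), osteoclast markers from 199 to 279 to 699 to 720 CPM (4 of 7 higher), and endothelial markers from 193, 26.8 and 199 CPM to 9.53 to 11.2 CPM (1 of 5 lower). Adipocyte markers were at 598 to 919 and 658 to 687 CPM (0 of 4 called). When control replicate 2 was left out, 6 of 6 endothelial markers and 2 of 5 adipocyte markers (Adipoq and Fabp4) were called lower. The markers called higher were then 5 of 12 for fibroblasts (1 lower), 2 of 5 for tendon, 2 of 4 for chondrocytes, 1 of 5 for dura (1 lower), 3 of 6 for pericytes and smooth muscle, 9 of 9 for skeletal muscle and 5 of 7 for osteoclasts. For pericytes and smooth muscle, those called higher without control replicate 2 were Acta2, Cnn1 and Tagln. Rgs5 (log2 fold change -0.84), Cspg4 (-0.92) and Myh11 (-0.86) then passed the adjusted p lower, under the fold limit. The part of the marked cell types in the SLRP differences was not tested. In bulk libraries, fewer cells of a type and less RNA per cell cannot be told apart.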

How the data were processed

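RNA of sorted tdTomato+ calvarial cells was made into libraries with a SMARTER mRNA-Seq kit and sequenced on a DNBseq machine. The authors deposited, per gene and library, raw read counts and FPKM values rounded to 2 decimals, beside log2 fold changes and p-values of their own comparison, which were not used. GRCm38 is named in the submitters' processing notes. The aligner and counter are not given in the sources used here. Blank FPKM cells were read as 0.

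Counts were filtered with filterByExpr (13484 of 17830 genes kept), scaled by TMM and tested with edgeR 4.0.16 (quasi-likelihood test, Benjamini-Hochberg over all genes tested, R 4.3.3). Called means an adjusted p of at most 0.05 and a log2 fold change of at least 1 in size. SEs are the log2 fold change divided by the square root of F. CPM are counts scaled by the TMM library size. DESeq2 1.42.0, and limma 3.58.1 on log2(FPKM + 1) and log2(FPKM + 0.1), were alternatives. The fits were tested on simulated data.

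Members and lists were chosen with earlier results of these data known. Named genes are all 10 members, the other SLRP genes, per partner list at most 4 in each direction by size of change among those past the adjusted p, and the nearest genes in pattern. Promoter windows came from the RefSeq table, which held 8 of 10 members. Replicate numbers did not pair the samples (r of same-numbered deviations 0.084, -0.043 and 0.19).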

Additional observations from a re-analysis of the deposited data

How the results depend on the processing

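Over all genes, 504 were called higher and 486 lower. Requiring 10 counts in every library left 320 called higher and 412 lower. With limma, 322 (log2(FPKM + 1)), 437 (log2(FPKM + 0.1)) or 305 (no filter) were called higher. The counts called lower were 182 (log2(FPKM + 1)), 251 (log2(FPKM + 0.1)) or 170 (no filter). Leaving out 1 library at a time gave 281 to 670 higher and 230 to 905 lower, the highest of each without control replicate 2. Members called higher then went from 1 to 2, called lower from 0 to 2, and past the adjusted p from 2 to 8. The value of 8, and the 2 called lower, came without control replicate 2, and the value of 2 came without each APPswe library.

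Dcn turned from -0.58 to 0.031 with limma on log2(FPKM + 1), with and without a filter, and to 0.037 on log2(FPKM + 0.1). Among libraries named with a hyphen, control replicate 2 included, Dcn turned to 0.57 and Lum to 0.15. With control replicate 2 left out, the hyphen values were -1.04 for Dcn and -0.78 for Lum. These within-style differences were chosen after seeing the data. Aspn missed the adjusted p with the name style as a covariate (0.0634). The cause of these changes was not tested. With the replicate block, 384 genes were called higher and 324 lower, and no call of a member changed. Not every library correlated best with its own number. DESeq2 called 516 higher and 607 lower, with the same counts of members as edgeR. Epyc was near the limit of 3 counts, and no alternative at a lower depth was run.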
